A study of Mus musculus with 4 samples.

Results

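The proteasome genes of mouse splenic dendritic cells were read in 4 libraries of total RNA, 2 from KO and 2 from WT samples, and their members were all rows whose symbol begins with Psma, Psmb, Psmc, Psmd, Psme, Psmf or Psmg and a number. There were 50 such rows among the 17300 genes of the deposited table. They comprise the core particle, the regulatory cap, activators, an inhibitor and assembly chaperones, and 1 row caught by its name alone, Psmc3ip, which encodes a meiotic recombination factor and not a proteasome subunit. The cells were flow-sorted from spleen; the sample titles carry the letters EKO and the genotype label reads KO or WT. The deleted gene is not given in the labels, and the series title concerns Siglec-E, an inhibitory receptor for sialic acid on myeloid cells. The sources used here do not state strain, age, sex, the gate of the sort or how many animals stand behind a group. Every column name of the table starts with the unexplained word Allo, so a treatment shared by both groups cannot be told. The numbers of the KO columns match no KO title, and the names KO A and KO B stand for these libraries.

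The proteasome is a barrel of stacked rings that degrades proteins tagged with ubiquitin. The outer rings are built from alpha subunits and form the gate, the inner rings from beta subunits, of which Psmb5, Psmb6 and Psmb7 carry the proteolytic sites. A cap with a base of ATPases (Psmc) and a set of non-ATPase subunits (most Psmd) receives, unfolds and feeds in the substrate. In lymphoid and myeloid cells, and in other cells under interferon gamma, Psmb8, Psmb9 and Psmb10 take the places of Psmb5, Psmb6 and Psmb7 in newly built particles. The resulting immunoproteasome, with the activator PA28 made of Psme1 and Psme2, yields peptides suited to MHC class I, which dendritic cells show to CD8 T cells.

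The promoters of the pairs Psmb8 with Psmb5 and Psmb9 with Psmb6 are shown because these are the exchanges whose ratio in KO lay below that in WT (values further down). Each is the 250 bases before the transcription start in RefSeq (build GRCm38.p6, older than the GRCm39 named in the submitters' processing notes), on the gene's strand from 5′ to 3′. Psmb8 is at chr17:34197945-34198194 (plus strand), Psmb9 at chr17:34187331-34187580 (minus strand), Psmb5 at chr14:54617996-54618245 (minus strand) and Psmb6 at chr11:70525107-70525356 (plus strand). Capitals mark matches, on either strand, to TTCNNNGAA (the letters of the interferon gamma activated site), GAAANNGAA (part of the interferon-stimulated response element), TGACNNNGC (the antioxidant response element read by NFE2L1 and NFE2L2) or CCAAT.
Psmb8: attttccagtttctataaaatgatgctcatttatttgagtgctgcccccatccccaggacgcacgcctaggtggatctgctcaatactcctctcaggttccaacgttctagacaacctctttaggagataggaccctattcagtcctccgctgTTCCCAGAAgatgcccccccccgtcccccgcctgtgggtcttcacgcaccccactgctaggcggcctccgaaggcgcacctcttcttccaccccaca
Psmb9: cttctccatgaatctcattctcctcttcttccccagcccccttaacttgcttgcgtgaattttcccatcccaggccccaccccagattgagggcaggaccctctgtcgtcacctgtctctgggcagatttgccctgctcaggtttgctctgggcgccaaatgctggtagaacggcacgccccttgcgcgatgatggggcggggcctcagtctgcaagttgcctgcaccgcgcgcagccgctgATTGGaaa
Psmb5: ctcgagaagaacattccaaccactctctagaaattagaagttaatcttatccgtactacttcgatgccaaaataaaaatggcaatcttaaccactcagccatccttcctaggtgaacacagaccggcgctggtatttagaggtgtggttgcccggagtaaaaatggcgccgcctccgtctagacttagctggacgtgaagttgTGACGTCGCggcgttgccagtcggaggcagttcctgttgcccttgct
Psmb6: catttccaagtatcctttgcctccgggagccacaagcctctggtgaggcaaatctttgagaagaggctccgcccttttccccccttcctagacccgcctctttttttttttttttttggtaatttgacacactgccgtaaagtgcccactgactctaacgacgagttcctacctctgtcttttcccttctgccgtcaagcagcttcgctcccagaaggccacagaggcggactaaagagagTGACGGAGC
The capitals are an interferon gamma activated site in Psmb8, a CCAAT box on the opposite strand in Psmb9 and an antioxidant response element in both Psmb5 and Psmb6, and none of these matches overlaps a match to another motif. The start of Psmb9 lies 226 bases from that of Tap1, the peptide transporter gene, which runs the other way, so most of the Psmb9 window is also Tap1 promoter. Of the 50 members, 42 had a window in the RefSeq table (45 windows in all) and 8, among them Psmb7, did not. The windows of the other inducible genes, Psmb10, Psme1 and Psme2, are not shown and held no match to any of these motifs. TGACNNNGC was in 11.1% of member windows and in 10.2% of all 32851 promoter windows, CCAAT in 33.3% and 33.8%, TTCNNNGAA in 4.44% and 7.02%, and GAAANNGAA in 6.67% and 7.13%. Such a match is a description of letters and no shown binding site.

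Values are log2 on the variance-stabilized scale of the deposited table, which compresses low levels; normalized counts were recovered by undoing that transform. The recovered counts summed to between 29002408 and 30952251 per library after the authors' scaling, so they do not give the sequencing depth, and proteasome members held between 0.324% and 0.374% of them. Siglece (ENSMUSG00000030474), the gene of Siglec-E, was at 8.92 and 8.96 in the KO libraries and at 10.38 and 10.14 in WT, in the direction of the labels (adjusted p = 0.0138, limma; 0.0545 without KO A and 0.0851 without KO B). KO A stood apart in Y-linked RNA, with Ddx3y at 8.74 against 11.82 to 12.13 in the other libraries, and the labels give no sex; main values are given without KO A and without KO B below. In these samples 5 of 8 dendritic cell markers fell, 0 rose, and all 8 were detected in every library, with summed counts of 301475 to 320551 in KO and 407120 to 410889 in WT. All 6 NK markers rose (10553 to 12797 counts in KO, 4365 to 4686 in WT), as did 3 of 5 macrophage markers (6235 to 9021 and 3256 to 3407), 3 of 5 red cell markers (18584 to 26496 and 1316 to 7217), 1 of 5 neutrophil markers and 1 of 2 tested T cell markers, while 0 of 4 B cell and 0 of 4 plasmacytoid markers passed. The T cell marker that passed was Lck (difference 0.77), while Cd3d (0.24) did not. Cd3e (-0.02) and Cd3g (0.55) were too low to be tested. Among all tested genes 4.69% were called higher and 2.23% lower. None of these marker calls held with KO A left out, and none of the rises with KO B left out (limma). Fewer cells of a type and less RNA per cell cannot be told apart in such bulk samples, and the part of these shifts in the proteasome values was not tested.

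Proteasome genes were close to equal in KO and WT. Of the 50 members 49 were expressed highly enough to be tested, and 0 of them passed an adjusted p of 0.05 (limma, Benjamini-Hochberg over all 11864 genes tested), against 6.93% of all tested genes. With an unadjusted p under 0.05 there were 6, of which Psmd5, Psmd9 and Psmf1 were higher and Psma3, Psme2 and Psmb11 lower in KO; this is 12.2% of members, against 24.7% of all tested genes. The median difference over the 49 was near 0, as it was over all tested genes, and single differences ran from -0.35 (Psma3) to 0.35 (Psmd5). A difference smaller than 0.2 log2 units was measured for 41 of the 49 (83.7%, against 67.8% of all tested genes).

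The intervals say how large a change these 4 libraries would still allow. The 95% interval of every tested member lay within 1 log2 unit of 0 on either side, from -0.57 at its lowest to 0.56 at its highest, and for 45 of 49 it lay within 0.5 (91.8%, against 75.8% of all tested genes). A miss of the threshold therefore does not show equal expression, but a change of 1 log2 unit lies outside the interval of each of these 49 genes on the deposited scale. That scale shrinks changes at low levels. As log2 of the count plus 1, Psmb11 differed by -0.52 in place of -0.21 and Psmd9 by 0.49 in place of 0.31. Intervals on the count scale are not given here. KO and WT libraries did not overlap for 19 of the 49 members, 10 of them higher and 9 lower in KO. Among all tested genes 56.2% had groups that did not overlap, 28.1% higher and 28.2% lower in KO. The member left out of the test was Psma8, an alpha subunit of the testis, at 8.36 and 8.55 in KO and 8.59 and 8.65 in WT, near the lowest value of the table (8.04).

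**Figure D1:**
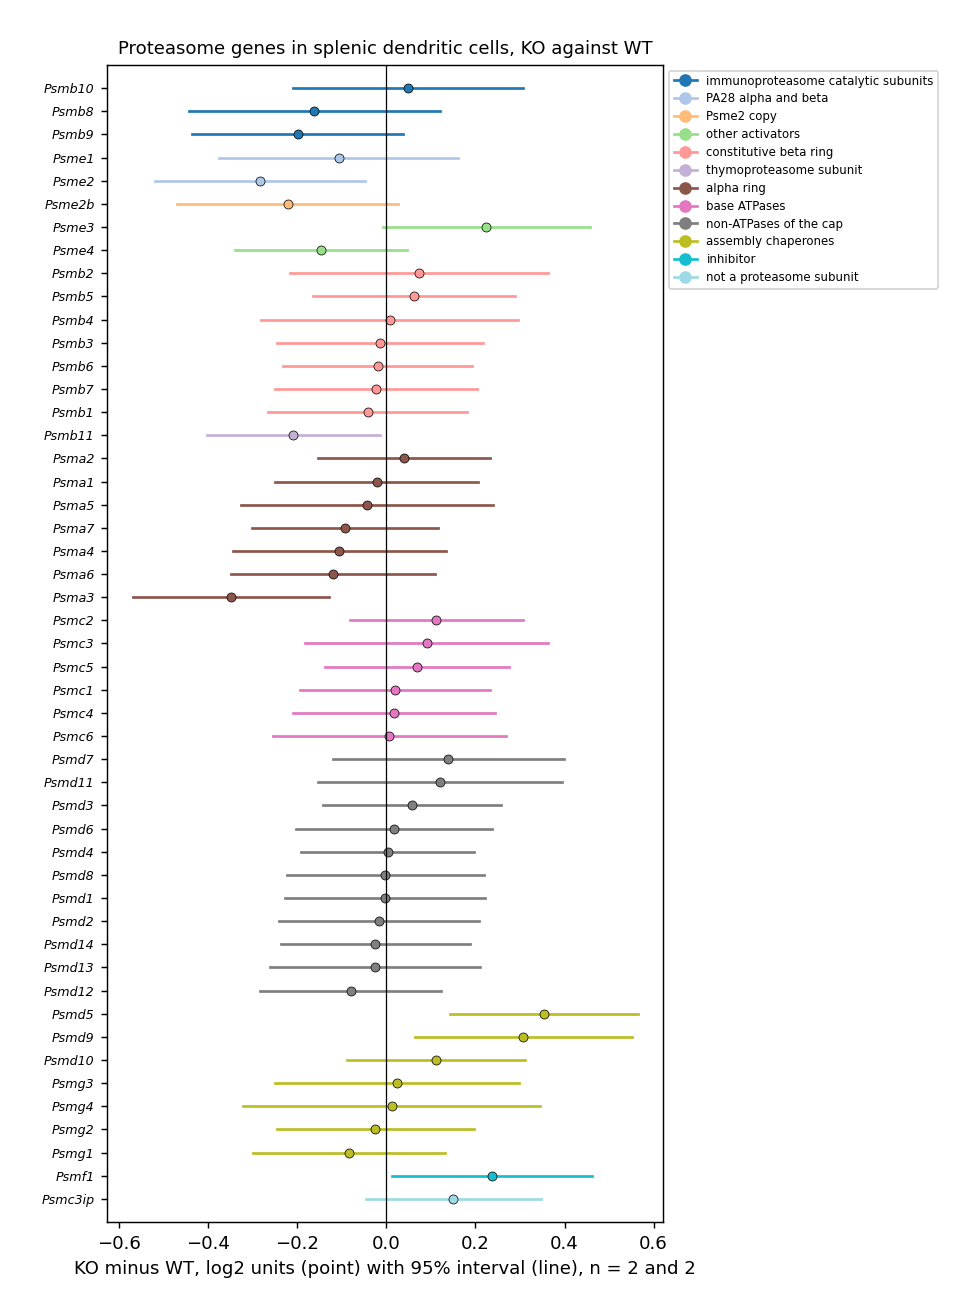
KO minus WT in log2 units (horizontal axis) for the 49 tested members, with 95% intervals from limma as lines, 2 libraries a group, colours by role. All intervals lie between -0.57 and 0.56, and those of Psmd5, Psmd9, Psmf1, Psma3, Psme2 and Psmb11 do not include 0.

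The catalytic subunits of the immunoproteasome were strongly expressed in both groups. Psmb8 (ENSMUSG00000024338), which replaces the chymotrypsin-like subunit, was at 13.33 (KO A) and 13.03 (KO B) against 13.27 (WT 1) and 13.41 (WT 2). The libraries of the groups overlap, KO B being the lowest, and the difference was -0.16 (SE 0.117, 95% interval -0.44 to 0.12, adjusted p = 0.444, limma). Psmb9 (ENSMUSG00000096727), which replaces the caspase-like subunit, was at 11.73 and 11.51 in KO and at 11.84 and 11.80 in WT. Both KO libraries were below both WT libraries, by a mean of 0.20 (a difference of -0.20, SE 0.0983, 95% interval -0.44 to 0.04), which did not pass (adjusted p = 0.269, limma). Both genes hung on the KO library: Psmb8 differed by -0.31 without KO A and by -0.015 without KO B, and Psmb9 by -0.31 and -0.093. Tap1, its neighbour, picked after its values were seen, was at 13.32 and 13.09 in KO and 13.22 and 13.47 in WT, with overlapping groups and a difference of -0.14 (adjusted p = 0.525, limma). Psmb10 (ENSMUSG00000031897), which replaces the trypsin-like subunit and lies on another chromosome than Psmb8 and Psmb9, was at 11.17 and 10.95 in KO and at 10.95 and 11.08 in WT. Its difference had the other sign, 0.05 (95% interval -0.21 to 0.31, adjusted p = 0.830, limma), and its groups overlap.

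The activator PA28 opens the gate of the core particle, and its alpha and beta chains are induced by interferon gamma together with the subunits above. Psme1, the alpha chain (ENSMUSG00000022216), was at 13.81 and 13.57 in KO and at 13.71 and 13.88 in WT, with overlapping groups and a difference of -0.11 (95% interval -0.38 to 0.16, adjusted p = 0.608, limma). Psme2, the beta chain (ENSMUSG00000079197), was at 11.77 and 11.63 in KO and at 11.90 and 12.07 in WT. The groups of Psme2 do not overlap, and its difference of -0.28 (SE 0.0981, 95% interval -0.52 to -0.05) was the largest of the inducible genes and did not pass over all genes (adjusted p = 0.139, limma). Psme2b, a near-identical copy that shares 76.5% of its 31-base words with Psme2, was lower by a similar amount (-0.22, adjusted p = 0.246, limma), and reads of the pair can be split between them by the authors' counting.

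The other activators took opposite signs. Psme3 (ENSMUSG00000078652), the nuclear PA28 gamma that is not induced by interferon gamma, was at 11.63 and 11.50 in KO and at 11.26 and 11.42 in WT. Both KO libraries lay above both WT libraries, by 0.22 (95% interval -0.01 to 0.46, adjusted p = 0.216, limma). Psme4 (ENSMUSG00000040850), the large activator PA200, was at 11.91 and 12.00 in KO and at 12.09 and 12.12 in WT, a difference of -0.15 (95% interval -0.34 to 0.05, adjusted p = 0.316, limma). Neither passed the threshold.

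Compared with the rest of the complex, the 5 inducible genes Psmb8, Psmb9, Psmb10, Psme1 and Psme2 had a median difference of -0.16, with 4 of 5 below 0. The 31 constitutive subunits of the core particle and cap had a median of -0.003, close to the -0.002 of all tested genes. No gene of either set passed the threshold (6.93% of all tested genes did). The median of the inducible genes hung on the KO library: it was -0.31 without KO A and -0.015 without KO B, and it was -0.19 without WT 1 and -0.10 without WT 2. For the constitutive subunits the median was -0.065 without KO A and 0.060 without KO B.

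Within a library the inducible gene can be set against the subunit it replaces on the deposited scale, where a scaling factor common to a library enters both values, though not to the same extent at different levels. As log2 ratios of recovered counts, from which such a factor drops out, the Psmb8 and Psmb5 contrast given next was -0.26 in place of -0.22. Psmb8 exceeded Psmb5 by 2.88 (KO A) and 2.72 (KO B) against 2.93 (WT 1) and 3.11 (WT 2). Both KO libraries were below both WT libraries, and the gap was smaller in KO by 0.22 on the log2 scale (KO 2.80 ± 0.11, WT 3.02 ± 0.13, SD, n = 2 each; exact permutation p = 0.333, two-sided). In normalized counts, not divided by length and so read only between libraries, this was a ratio of Psmb8 to Psmb5 of 10.6 and 9.82 in KO and of 11.3 and 13.2 in WT. Psmb9 exceeded Psmb6 by 0.66 and 0.54 in KO and by 0.84 and 0.72 in WT, again without overlap (exact permutation p = 0.333). Psmb10 exceeded Psmb7 by 0.27 and 0.22 in KO and by 0.11 and 0.24 in WT, and here the groups overlap (exact permutation p = 0.667).

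The mean of the 3 inducible catalytic subunits exceeded that of their 3 counterparts by 1.27 and 1.16 in KO and by 1.29 and 1.36 in WT (exact permutation p = 0.333). This difference of -0.11 ran from -0.16 (without KO A) to -0.057 (without KO B) with single libraries left out. Since this contrast averages the 3 pairs above, it is no separate observation. The widest separation was in the activators: the mean of Psme1 and Psme2 exceeded Psme3 by 1.16 and 1.10 in KO and by 1.54 and 1.56 in WT (exact permutation p = 0.333). That gap was 0.42 log2 units smaller in KO, with SDs of 0.05 in KO and 0.01 in WT, and it ran from 0.39 to 0.45 smaller when any 1 library was left out. Both sides entered it: Psme3 alone differed by 0.22, Psme1 by -0.11 and Psme2 by -0.28. The size of this gap depends on Psme3 being taken as the counterpart. Psme4 differed by -0.15, with the sign of Psme1 and Psme2, and a contrast against it was not run. In counts, again not divided by length, PA28 alpha and beta stood at 2.41 and 2.32 times PA28 gamma in the KO libraries and at 3.33 and 3.32 times in the WT libraries, taking the geometric mean of the chains. With 2 libraries against 2, no exact two-sided p below 0.333 can be had, so none of these 5 contrasts could pass (Benjamini-Hochberg over the 5 gave 0.417 for each but Psmb10 with Psmb7, at 0.667). Left out in turn, single libraries moved the Psmb8 and Psmb5 contrast between -0.32 (without WT 1) and -0.13 (without WT 2), with -0.15 without KO B. The Psmb9 and Psmb6 contrast, -0.18, ran from -0.24 to -0.12, with -0.12 both without KO B and without WT 1. That of Psmb10 and Psmb7, 0.07, ran from 0.0040 (without WT 1) to 0.14 (without WT 2).

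**Figure D2:**
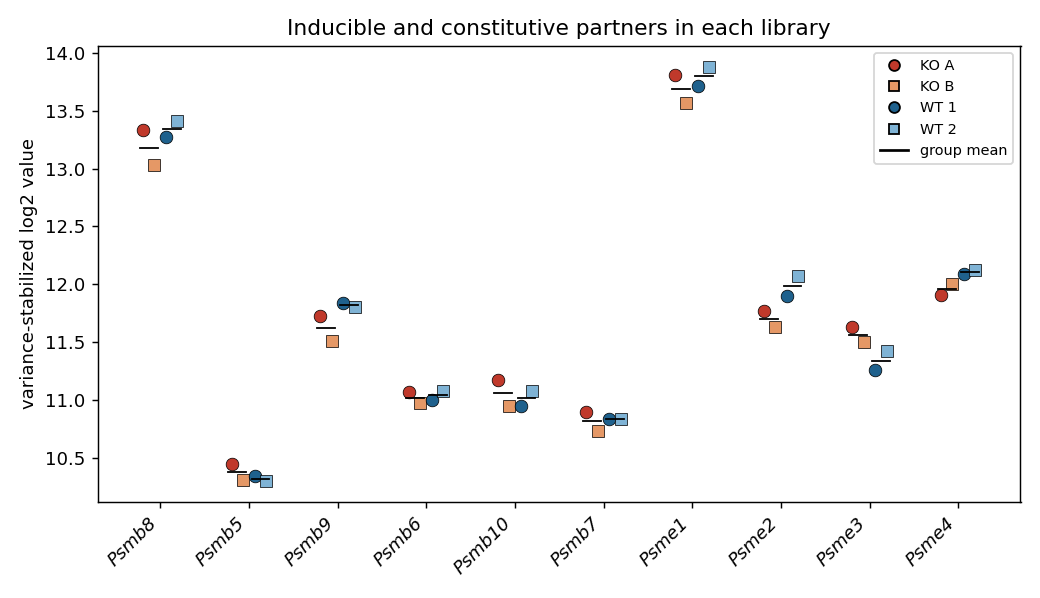
Variance-stabilized log2 values (vertical axis) of the inducible genes and their counterparts in each library, KO in red and orange, WT in blue, bars at group means. Psme2 and Psme3 part the groups in opposite directions, while Psmb8, Psmb10 and Psme1 overlap.

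**Figure D3:**
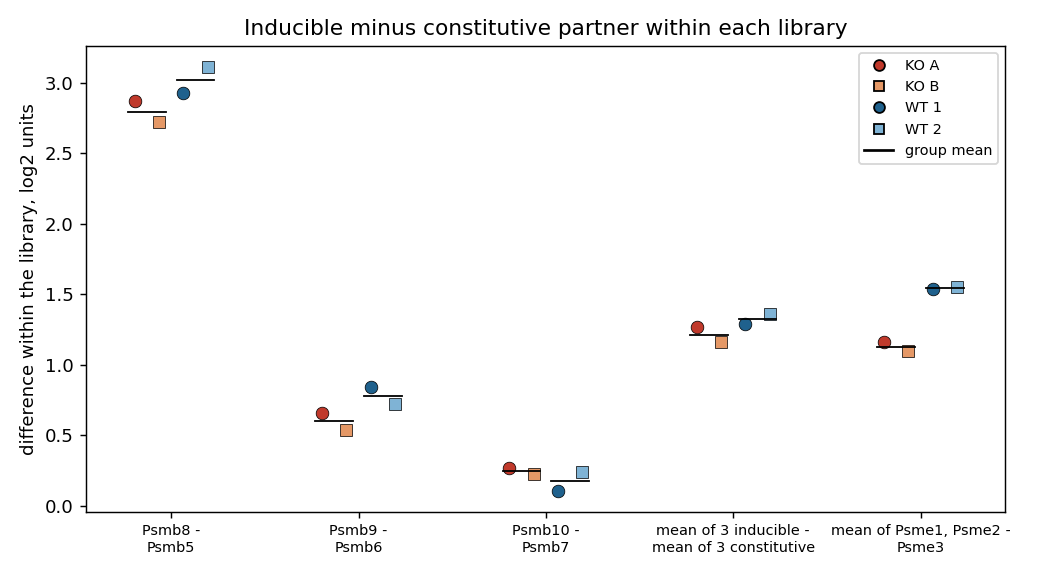
Difference in log2 units between an inducible gene and its counterpart within each library (vertical axis), bars at group means. KO lies below WT without overlap in 4 of the 5 contrasts, most widely for Psme1 and Psme2 against Psme3 (1.10 to 1.16 in KO, 1.54 to 1.56 in WT). Of all tested genes taken singly, 56.2% had groups apart, 28.2% with KO lower. The share among contrasts of other genes was not computed. The contrast of means averages the 3 pairs and is no separate observation. Psme3 alone differed by 0.22, Psme1 by -0.11 and Psme2 by -0.28. Psme4, which differed by -0.15, was not used as a counterpart.

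Levels were ranked across genes as normalized counts per kilobase of the longest protein-coding transcript (GENCODE M21), averaged over the 4 libraries. Psme1 had the highest level of all members at 11895 counts per kilobase, followed by Psmb8 at 5736 and Psme2 at 3308. Psme1 and Psme2 share 22.1% and 66.2% of their 31-base words with other transcripts, so their levels are uncertain. With the median length of coding transcripts, an alternative added after seeing the data, Psme1 and Psmb8 were again the highest, but Psme2 (4003) came after Psmd2 (6253), Psme4 (5599), Psmb9 (5454) and Psma4 (4201). The 7 constitutive beta subunits lay between 928 (Psmb5) and 2008 (Psmb6), the 7 alpha subunits between 645 (Psma2) and 2986 (Psma4), the 6 ATPases between 732 (Psmc6) and 1813 (Psmc3), and the 11 other cap subunits between 595 (Psmd12) and 2284 (Psmd4). The 7 assembly chaperones ran from 132 (Psmd10) to 942 (Psmg4) with a median of 255, and their range meets that of the constitutive subunits at its upper end. The median over all tested members was 1134.

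Among the exchanged pairs, Psmb8 was at 6.18 times the level of Psmb5 per kilobase, Psmb9 at 1.06 times Psmb6 and Psmb10 at 1.07 times Psmb7. These ratios depend on the transcript length taken: with the median length they were 10.1, 2.72 and 1.07. Psmb5 also shares 74.0% of its 31-base words with transcripts of other annotated genes, so its level is uncertain, whereas Psmb8, Psmb9 and Psmb10 share none. Psmb11, the beta subunit of the thymic cortex, was the lowest tested member per kilobase (48.3), at 9.18 and 9.15 in KO and 9.36 and 9.38 in WT (difference -0.21, 95% interval -0.40 to -0.02, adjusted p = 0.173, limma).

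**Figure D4:**
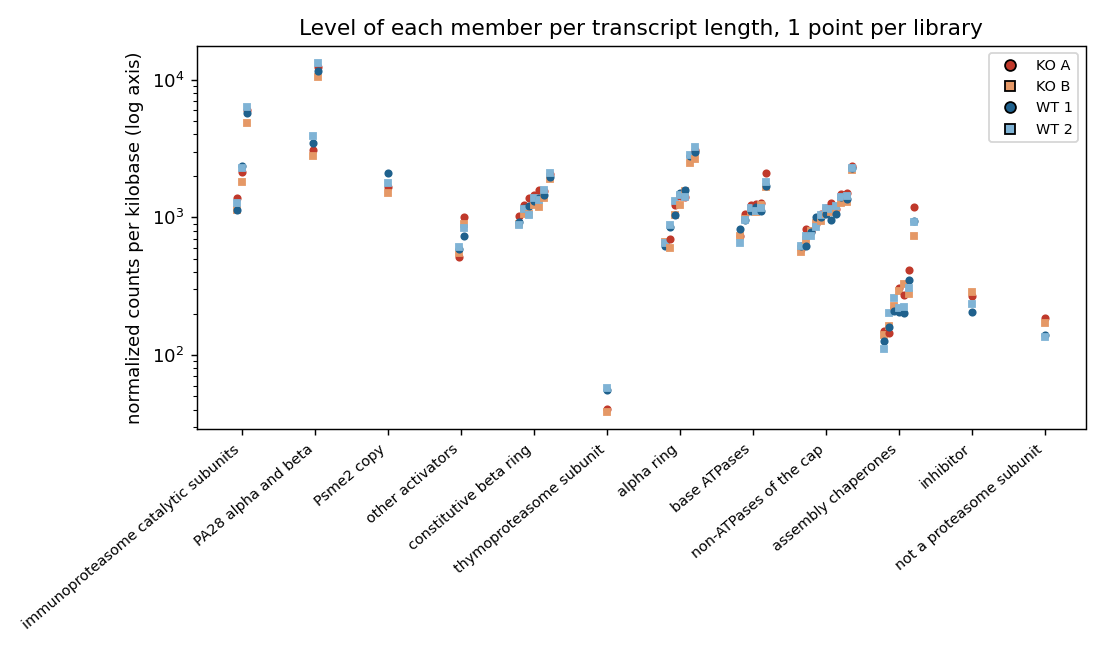
Normalized counts per kilobase (log axis) of the 49 tested members, grouped by role, 1 point per library. Psme1 and Psmb8 stand above the constitutive subunits, whose means over the 4 libraries lie between 595 and 2986, and Psmb11 is lowest with a mean of 48.3.

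The constitutive catalytic subunits were nearly level between groups. Psmb5 (chymotrypsin-like) was at 10.45 and 10.31 in KO and 10.34 and 10.30 in WT, Psmb6 (caspase-like) at 11.07 and 10.97 against 11.00 and 11.08, and Psmb7 (trypsin-like) at 10.90 and 10.73 against 10.84 and 10.84. All 7 constitutive beta subunits had overlapping groups, while 56.2% of all tested genes had groups apart. The differences of these subunits lay between -0.04 (Psmb1, which had the highest log2 value of the ring) and 0.07 (Psmb2). Their intervals together ran from -0.28 to 0.36.

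In the alpha ring 6 of 7 subunits differed by less than 0.2, and Psma3 (ENSMUSG00000060073) stood out. It was at 11.27 and 11.11 in KO and at 11.52 and 11.56 in WT, with no overlap. The difference was -0.35 (SE 0.0917, 95% interval -0.57 to -0.13), 1.34-fold fewer counts in KO, and it missed the threshold (adjusted p = 0.0738, limma). The longest Psma3 transcript shares 27.1% of its 31-base words with other transcripts, among them Gm13835, so this value is uncertain. Psma4 and Psma5, given next, share 38.9% and 64.0%, so their values are uncertain too. Psma4, with the highest log2 value of the ring, was at 12.00 and 11.81 in KO and 11.95 and 12.07 in WT. Psma5, with the lowest, was at 10.97 and 10.79 in KO and 10.80 and 11.04 in WT. Psma2 differed by 0.04 and Psma1 by -0.02.

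The cap was likewise level. The 6 ATPases of the base, which unfold the substrate, differed by 0.01 (Psmc6) to 0.11 (Psmc2). In 2 of them, Psmc2 and Psmc5, both KO libraries lay above both WT libraries, which also held for 28.1% of all tested genes. Psmc3, the ATPase with the highest log2 value, was at 12.08 and 11.79 in KO and 11.80 and 11.88 in WT. Of the 11 non-ATPase cap subunits, 9 had overlapping groups, while 56.2% of all tested genes had groups apart. Differences of these subunits ran from -0.08 (Psmd12) to 0.14 (Psmd7). Psmd2, a scaffold of the base with the highest log2 value, was at 12.26 and 12.07 in KO and 12.19 and 12.18 in WT. It shares 45.3% of its 31-base words with other transcripts, so its value is uncertain. Psmd4, a ubiquitin receptor, differed by less than 0.01, and Psmd14, the deubiquitinase of the cap, by -0.02.

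Assembly chaperones hold partial rings until the particle is complete. Psmd5 (ENSMUSG00000026869), a chaperone that holds base ATPases during assembly, was at 10.84 and 10.79 in KO and at 10.42 and 10.50 in WT. The groups lie apart, and the difference of 0.35 (SE 0.0880, 95% interval 0.14 to 0.56; 1.41-fold more counts in KO) had the smallest p of all members without passing (adjusted p = 0.0638, limma). Psmd9 (ENSMUSG00000029440), another base chaperone, was at 10.20 and 10.37 in KO and at 9.93 and 10.02 in WT, a difference of 0.31 (95% interval 0.06 to 0.55, adjusted p = 0.126, limma). Psmd10, the base chaperone also known as gankyrin, was at 9.30 and 9.26 in KO and 9.20 and 9.13 in WT (difference 0.11, adjusted p = 0.461, limma). The 4 chaperones of the core particle, Psmg1 to Psmg4, had overlapping groups (56.2% of all tested genes had groups apart). Their differences ran from -0.08 (Psmg1, the lowest of them) to 0.02 (Psmg3). Psmg4, the highest by log2 value, ran from 9.73 in KO B to 10.13 in KO A.

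Psmf1 (ENSMUSG00000032869), known as PI31 and first described as an inhibitor of the core particle, was at 10.55 and 10.62 in KO and at 10.29 and 10.41 in WT. Both KO libraries were above both WT libraries, by 0.24 (95% interval 0.01 to 0.46, adjusted p = 0.180, limma). Psmc3ip was at 9.37 and 9.32 in KO and 9.20 and 9.18 in WT (difference 0.15, adjusted p = 0.314, limma).

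The KO libraries differed from each other over most of the complex. KO A was above KO B in 40 of 49 members (81.6%), by a median of 0.14, whereas it was above in 50.4% of all tested genes, with a median near 0. All 7 constitutive beta subunits, all 5 inducible genes, 5 of 6 ATPases and 10 of 11 non-ATPase cap subunits were higher in KO A. After quantile normalization the count was 41 of 49, with a median of 0.12, and among the 4897 tested genes with a mean in the range of the constitutive subunits (10.35 to 12.18) KO A was above in 53.2%. For the 5 inducible genes the median gap within KO was 0.21, larger in size than their median KO and WT difference (-0.16). WT 2 was above WT 1 in 29 of 49 members, by a median of 0.04. Plasmacytoid markers differed between the KO libraries as well, with summed counts of 30271 in KO A and 15770 in KO B (15833 and 20184 in WT), and their part in the gap was not tested.

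Among genes that act around the proteasome, Zfand2a, Zfand5 and Nfe2l2 rose in KO. Of 12 proteasome-associated and assembly factors outside the symbol rule, 2 rose, 0 fell and 10 did not pass, with a median of 0.10. The share called higher among all tested genes was 4.69%, and the list was not tested as a set. Zfand2a, a stress-induced protein that associates with the cap, was at 10.38 and 10.28 in KO and at 9.26 and 9.60 in WT, a rise of 0.90 (SE 0.129, adjusted p = 0.0207, limma; 3.03-fold in counts). Zfand5, which binds the proteasome and stimulates its activity, was at 12.65 and 12.81 against 11.96 and 12.17, a rise of 0.67 (SE 0.106, adjusted p = 0.0252, limma). Pomp, the maturation protein of the core particle, picked after its values were seen, was at 11.89 and 11.57 in KO and 11.95 and 11.96 in WT (difference -0.23, adjusted p = 0.291, limma).

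Of 16 genes reported for the control of proteasome expression and the delivery of substrates, 1 rose, 0 fell and 15 did not pass, with a median of 0.016. For comparison, 4.69% of all tested genes were called higher and 2.23% lower. Nfe2l2, a transcription factor of the oxidative stress response, was at 12.32 and 12.13 in KO and at 11.68 and 11.66 in WT, a rise of 0.56 (SE 0.0920, adjusted p = 0.0264, limma). In Zfand2a, Zfand5 and Nfe2l2, named because they passed, both KO libraries lay above both WT libraries. That also held for 28.1% of all tested genes. With either KO library left out none of these 3 passed (adjusted p = 0.0720 to 0.0891 without KO A and 0.0857 to 0.120 without KO B, limma), while the rise of Zfand2a was 0.85 and 0.95 in those fits.

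Of 12 genes for class I peptide supply 0 passed in either direction (median -0.02, range -0.21 to 0.31). Of 13 tested genes of the interferon gamma signal and its factors, 0 rose, 1 fell and 12 did not pass (median 0.13). Jak2, a kinase of the interferon gamma receptor, was at 13.25 and 13.35 in KO and at 13.81 and 13.75 in WT, and fell by 0.48 (SE 0.0823, adjusted p = 0.0279, limma). Its call ended without KO A, KO B or WT 1 (differences of -0.43, -0.53 and -0.45; adjusted p = 0.0980, 0.0994 and 0.0760, limma). Jak1, the other kinase of that receptor, picked after its values were seen, was at 13.81 and 14.02 in KO and at 13.53 and 13.39 in WT, and its difference of 0.45 (95% interval 0.21 to 0.70) missed the threshold (adjusted p = 0.0526, limma). Of all tested genes 4.69% were called higher and 2.23% lower.

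**Figure D5:**
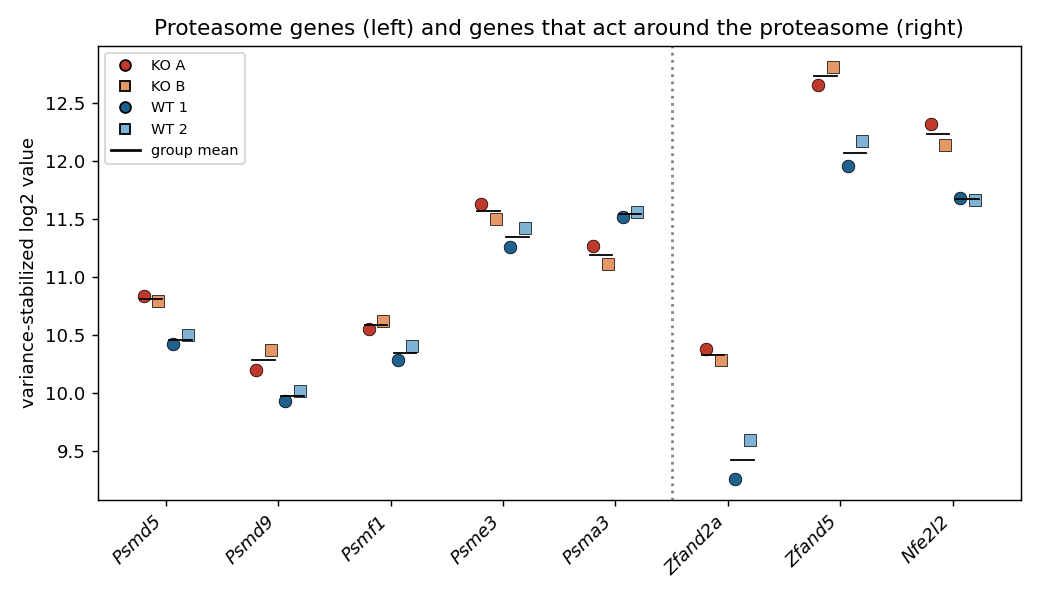
Variance-stabilized log2 values (vertical axis) in each library for 5 members with the groups apart (left of the dotted line, none past the threshold) and for 3 genes around the proteasome that rose in KO (right), bars at group means. Zfand2a and Nfe2l2 differ by 0.90 and 0.56, Psmd5 and Psma3 by 0.35 and -0.35.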

How the data were processed

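Total RNA of sorted splenic dendritic cells was sequenced from 2 KO and 2 WT samples with a stranded total RNA kit for small inputs, per the labels' protocols. The authors deposited log2 values on a variance-stabilized scale, scaled between libraries, for 17300 Ensembl genes. The submitters' processing notes name Salmon (1.10.1), DESeq2 and build GRCm39 without their roles; annotation and gene filter: not given in the sources used here. All 4 columns share the lowest value, 8.04, taken as a count of 0 to recover normalized counts.

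Symbols came from GENCODE M21 (17289 identifiers matched, 11 did not), used for names and transcript lengths. The 11864 genes whose mean exceeded the lowest value by 1 log2 unit or more were tested with limma 3.58.1 in R 4.3.3, with an intensity trend, two-sided, at an adjusted p of 0.05 (Benjamini-Hochberg over all tested genes; 6.48 total degrees of freedom). The procedure was tested on simulated data. Since nothing says that replicates are separate animals, the p-values reflect sample-to-sample spread that could be technical. Members and lists were chosen with earlier results of these data known. Named were members past the threshold (none), the inducible genes with their counterparts, the tissue-restricted members, and in each structural class the member with the largest difference and the highest and lowest value; others were picked after their values were seen. Of related lists, genes past the threshold were named; 1 gene of the list on control and delivery is not reported here and is not in its counts. Shared sequence is the share of a member's 31-base words (longest coding transcript) found in transcripts of other genes. Alternatives were other filters, quantile normalization, log2 of the count plus 1 or 10, no trend, single libraries left out, and members without near-identical copies.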

Additional observations from a re-analysis of the deposited data

How the results depend on the processing

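The count of members past the threshold was 0 under each alternative run on all 4 libraries. These were no filter, a filter of 2 log2 units, quantile normalization, log2 of the count plus 1 or plus 10, and no intensity trend. Leaving out the 5 members that share at least 50% of their 31-base words with other genes could only give 0 again. Those members are Psma5, Psmb3, Psmb5, Psme2 and Psme2b. The members with an unadjusted p under 0.05 numbered 6, but 2 without KO B, 3 without WT 1, and 5 without WT 2 and with the filter of 2 log2 units. Over all genes 822 passed, 557 higher and 265 lower; with quantile normalization 366 were higher, which is 56.5% of its calls against 67.8%. With single libraries left out, the count ran from 0 (without KO A) to 820, with 0 to 620 higher and 0 to 200 lower; without KO B 3 passed. Such fits leave an arm with 1 sample, which is assumed to vary like the other group, so 0 members called there says little. The median of the inducible genes ran from -0.31 to -0.015 and that of the constitutive subunits from -0.065 to 0.060 over the same fits, the extremes being those without KO A and without KO B; the cause was not tested. Psme1 ran from -0.23 to 0.012, reversing without KO B, and did not pass in any of these fits. The 5 within-library contrasts kept their sign under all alternatives run. In all but that of Psmb10 and Psmb7 the groups do not overlap. For these, leaving out 1 library could not reverse the sign. No paired analysis was possible because the KO columns carry numbers that match no KO title. Depth in reads is unknown, since the values were scaled before deposit.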
